A study of Mus musculus with 42 samples.

Results

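The E proteins and their Id inhibitors were followed as 7 genes, the E protein genes Tcf3, Tcf4 and Tcf12 and the inhibitor genes Id1, Id2, Id3 and Id4, chosen by symbol in 9 tables of bulk RNA-Seq from mouse colon. All 7 were listed in every table and all 7 had enough reads to be tested in every comparison. The 42 libraries came from C57/BL6 mice at least 8 weeks old and fell into 14 conditions of 2 to 4 libraries. Crypts isolated from the proximal colon (the 5 cm next to the cecum) or the distal colon (the 5 cm next to the anus) of untreated mice came from Mtg16-/- mice and their WT littermates (2 and 2 proximal, 4 and 4 distal) and, from a separate colony, from mice homozygous for the Mtg16 P209T allele (T/T) and their WT littermates (2 and 2 proximal, 4 and 3 distal). Distal crypts were also taken after DSS injury and repair, meaning 2% dextran sulfate sodium in the drinking water over 5 days and then plain water over 4 days (4 Mtg16-/- and 3 WT, 3 T/T and 3 WT). Distal tumors were dissected whole from T/T and WT mice (3 and 3) given 10 mg/kg azoxymethane and 3 cycles of 3% DSS (AOM/DSS). Both alleles were bred from heterozygous parents and were not limited to the epithelium, and nothing in the labels ties a library to one mouse or a pool, so the p-values measure the spread between libraries.

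E proteins belong to class I of the basic helix-loop-helix (bHLH) factors and bind the E box as homodimers or as partners of tissue-restricted class II bHLH factors, such as Atoh1 in goblet and other secretory cells and Neurog3 and Neurod1 in enteroendocrine cells. Id proteins share the dimerization domain but lack the DNA-binding region, so they hold E proteins in complexes that cannot bind DNA. MTG16, encoded by Cbfa2t3, is a corepressor that E proteins recruit, and P209T is an amino acid change that weakens its contact with E proteins. Id1, Id2 and Id3 are well-known targets of BMP signaling.

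Of the 7 genes, Id4 was the one whose mutant and WT libraries separated in every crypt comparison, so the sequence upstream of its start is shown. Id4 lies on GRCm38 chr13:48261228-48266026 on the plus strand and has 1 annotated transcript of 3849 bases. The 250 bases before its RefSeq start (RefSeq, GRCm38.p6, chr13:48260866-48261115, plus strand) read 5′ to 3′ as follows, where the capitals mark ATTGG (the reverse complement of CCAAT) and GGCGCC.
Id4 upstream: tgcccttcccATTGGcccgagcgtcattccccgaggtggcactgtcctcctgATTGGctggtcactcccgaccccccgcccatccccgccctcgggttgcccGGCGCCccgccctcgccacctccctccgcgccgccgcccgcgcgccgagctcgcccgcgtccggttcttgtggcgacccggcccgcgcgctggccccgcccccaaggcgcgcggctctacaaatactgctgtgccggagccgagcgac
No E box written as CANNTG was found in this window on either strand, whereas 66.2% of 32851 promoter windows of the same length held one. A single GGCGCC stood 148 bases before the start and a match to it was present in 9.59% of windows. The 2 ATTGG elements stood 240 and 198 bases before the start, and 33.8% of windows held CCAAT or ATTGG. Of the other members with a window in this table, the 1 of Id3 and 1 of 3 of Tcf12 also held no CANNTG, whereas those of Id2 and Tcf3 held 1 each, and the Id2 window held 1 GGCGCC and 3 matches to CCAAT or ATTGG. These are matches of letters only.

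Some libraries stood apart. A score built from the genes called between WT distal and proximal crypts with a log2 difference past 2 (360 higher in distal, 493 higher in proximal) ran from -3.14 to -2.74 in the 8 proximal baseline libraries and from 2.94 to 3.49 in 14 distal baseline libraries. The WT libraries among these were used to choose the score genes, so their separation was built in. After DSS the score was lower in every mutant library than in the WT libraries of its colony, at 1.262 to 1.722 in Mtg16-/- against 2.52 to 2.64 and at 1.17 to 2.01 in T/T against 2.37 to 2.85. The library labelled distal Mtg16-/- replicate 2 scored -2.40 and had 5.38 RPM (reads-per-million, a share of the library total) of Hoxb13, a posterior Hox gene, against 383 to 517 in the other 14. That library therefore goes against its segment label, and the limma tests of the members in distal Mtg16-/- crypts are given with and without it. The edgeR, DESeq2 and exact permutation results there include it. The libraries also differed in how long transcripts were represented. The median deviation of genes with transcripts of 5000 bases or more minus that of genes under 2000 bases was -0.39 to 0.26 (log2) at baseline, -1.29 to 0.25 after DSS and 0.34 to 0.70 in tumors. Crypt libraries carried epithelial markers throughout (8 of 8 genes, summed level 14637 to 23409 RPM) and few fibroblast reads (summed level 0.595 to 81.2), whereas tumors held 2820 to 3889 RPM of the 8 fibroblast markers. Cbfa2t3 itself, of which the null allele still gives reads, averaged 844 ± 301, 725 ± 277 and 526 ± 83.2 normalized counts (SD) in the proximal, distal and DSS Mtg16-/- groups against 2428 ± 1122, 1514 ± 341 and 2128 ± 350 in WT. It passed the threshold after DSS (log2 fold change -2.02 ± 0.19, limma adjusted p = 0.00292) and, without the library labelled replicate 2, in distal crypts (602 ± 154 normalized counts in Mtg16-/-, log2 fold change -1.33 ± 0.23, limma adjusted p = 0.0358). In T/T, whose allele is a substitution, Cbfa2t3 averaged 2758 ± 325, 1859 ± 284, 3051 ± 86.7 and 1799 ± 147 normalized counts in proximal, distal, DSS and tumor groups against 2041 ± 10.6, 987 ± 51.5, 2819 ± 498 and 1284 ± 181 in WT.

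The first question was whether loss of MTG16, or of its contact with E proteins, went with a change in the E protein and Id genes in crypts. None of the 7 genes passed the threshold (adjusted p under 0.05, limma across all genes) in any mutant comparison, where 0.0645% (proximal Mtg16-/-), 0.239% (distal Mtg16-/-), 0.232% (proximal T/T), 0.0369% (distal T/T), 0.629% (DSS Mtg16-/-) and 0% (DSS T/T) of all genes were called in either direction. At an unadjusted p under 0.05, 1 of the 7 remained in each of the 6 crypt comparisons, and it was Id4 each time. That unadjusted limit was passed by 5.96% of all genes in proximal Mtg16-/-, 4.63% in distal Mtg16-/-, 12.0% in proximal T/T, 4.65% in distal T/T, 12.4% in DSS Mtg16-/- and 8.77% in DSS T/T. On the recovered reads of the 4 distal crypt comparisons, edgeR called none of the 7 (0.210% of genes in distal Mtg16-/-, 0.0369% in distal T/T, 0.601% in DSS Mtg16-/- and 0% in DSS T/T). DESeq2 called 1, Id4, in distal Mtg16-/-, distal T/T and DSS Mtg16-/- and none in DSS T/T, where it called 2.45% of genes.

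Id4, the least abundant of the inhibitors in crypts per length of transcript, was higher in every mutant library than in every WT library in all 6 crypt comparisons. In proximal crypts, Id4 was at 419 and 840 normalized counts in Mtg16-/- and at 222 and 316 in WT. In distal crypts, it was at 1035, 911, 351 and 817 in Mtg16-/- and at 256, 240, 108 and 227 in WT. Both pairs of groups were separate, and the lowest distal Mtg16-/- library, replicate 3, belonged to the same sequencing request as the lowest WT library. The log2 fold change was 1.16 ± 0.35 in proximal crypts (SE, n = 2 and 2, limma adjusted p = 0.659, exact permutation p = 0.333, the smallest that 2 against 2 libraries can give) and 1.87 ± 0.39 in distal crypts (n = 4 and 4, limma adjusted p = 0.140, exact two-sided permutation p = 0.0286, the smallest that 4 against 4 can give). When single libraries were left out, the proximal value ran from 0.66 (without Mtg16-/- replicate 2) to 1.66 (without Mtg16-/- replicate 1). In distal crypts, with every library kept, DESeq2 gave a log2 fold change of 1.91 with an adjusted p of 4.32e-05, where it called 1.47% of genes. Without the library labelled distal Mtg16-/- replicate 2, Id4 was 1.75 ± 0.41 higher on the log2 scale (limma adjusted p = 0.126) and its groups still did not overlap. That removal raised the share of all genes called from 0.239% to 1.04%. Within each of the 2 sequencing requests of the distal comparison, the log2 fold change was 1.77 and 1.97 (2 and 2 libraries each, limma adjusted p = 0.997 and 0.686). The library labelled replicate 2 was 1 of the 2 Mtg16-/- libraries in the request that gave 1.97.

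In T/T crypts Id4 was at 371 and 426 normalized counts against 311 and 197 in WT proximally, and at 296, 395, 214 and 418 against 138, 139 and 168 distally. Again no T/T library reached down to a WT library. The log2 fold change was 0.68 ± 0.24 in proximal crypts (n = 2 and 2, limma adjusted p = 0.359, exact permutation p = 0.333) and 1.11 ± 0.25 in distal crypts (n = 4 and 3, limma adjusted p = 0.657, exact two-sided permutation p = 0.0571). With single libraries left out, the proximal T/T value ran from 0.35 (without WT replicate 2) to 1.01 (without WT replicate 1). DESeq2 gave 1.16 with an adjusted p of 0.00679 in distal T/T crypts, where it called 0.393% of genes.

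After DSS the WT level of Id4 was itself higher, and the mutant libraries remained above it. Mtg16-/- libraries stood at 1057, 1130, 853 and 884 normalized counts and WT libraries at 542, 653 and 502, a log2 fold change of 0.79 ± 0.18 (n = 4 and 3, limma adjusted p = 0.0822, exact two-sided permutation p = 0.0286). No label pairs the libraries, and a block by replicate number was used because same-numbered libraries deviated together in these data. With that block, which leaves 3 same-numbered pairs and drops the Mtg16-/- library without a partner, the log2 fold change of Id4 was 0.84 and passed the threshold (limma adjusted p = 0.00532). DESeq2 on all 7 libraries also called it (adjusted p = 0.00132, 5.03% of genes called). T/T libraries stood at 688, 555 and 449 and their WT littermates at 322, 318 and 353, a log2 fold change of 0.75 ± 0.23 (n = 3 and 3, limma adjusted p = 0.401, exact permutation p = 0.1, the smallest that 3 against 3 can give).

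**Figure D1:**
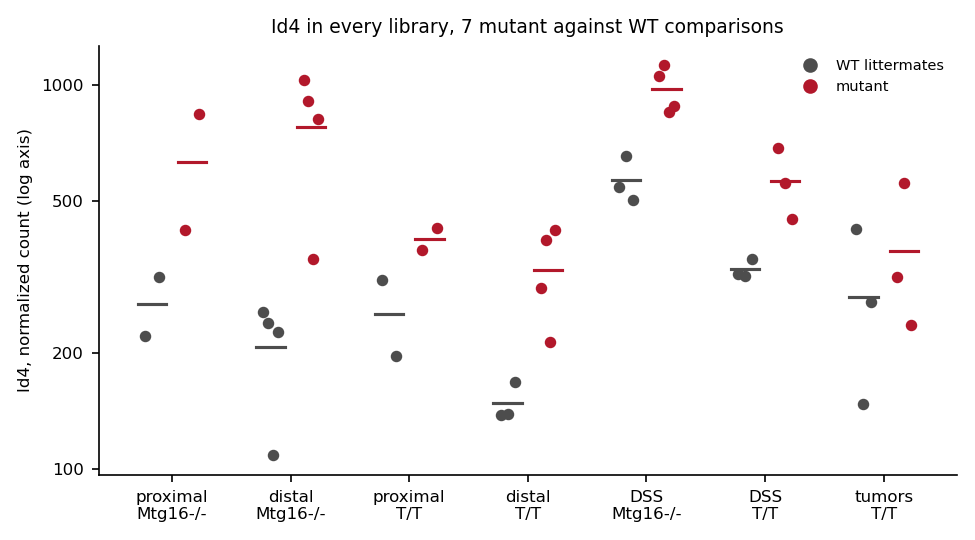
Normalized counts of Id4 (vertical log axis) in every library of the 7 mutant against WT comparisons, with WT littermates in grey, mutants in red and a bar at each group mean. Every mutant crypt library lies above every WT library of its comparison, whereas the T/T tumors (237 to 558) and WT tumors (147 to 422) overlap.

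Groups that do not overlap are common with few libraries. The mutant group lay wholly above WT for 17.5% of genes in proximal Mtg16-/-, 2.58% in distal Mtg16-/-, 22.6% in proximal T/T, 4.39% in distal T/T, 6.18% in DSS Mtg16-/- and 5.66% in DSS T/T. Of 12852 genes tested in all 6 comparisons, 19 (0.148%) lay wholly above WT in each of them, and Id4 was one of the 19. Another 3 genes lay wholly below WT in each. The other genes above WT, named here after their values were seen, included Insm1, Pax4 and Nkx2-2, transcription factors of enteroendocrine cells, the receptor genes Ret and Gfra3, the Notch ligand gene Dll3 and the ion channel genes Abcc8 and Cacna1a. No library is shared between these 6 comparisons, although the sources used here do not say whether proximal and distal crypts came from the same mice.

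Enteroendocrine marker sums were also higher in most mutant groups. The summed level of the 8 markers (among them Chga, Chgb, Pcsk1 and Syp, none at 0 in any group) was 359 to 560 RPM in proximal Mtg16-/- against 277 to 379 in WT, and 409 to 670 (409 to 529 without the library labelled replicate 2) against 175 to 214 in distal crypts. In T/T it was 438 to 550 against 317 to 368 proximally and 220 to 437 against 195 to 223 distally. After DSS it was 255 to 337 in Mtg16-/- against 141 to 220 in WT, and 249 to 319 in T/T against 154 to 234 in WT. The ranges of the marker sum overlapped in proximal Mtg16-/- and distal T/T and were apart in the other 4 comparisons. Of the 8 markers, limma called 2 upward in distal Mtg16-/- (5 without the library labelled replicate 2) and none in the other 5 comparisons, where 2 to 5 were at an unadjusted p under 0.05. edgeR called 2 in distal Mtg16-/- and none in distal T/T, DSS Mtg16-/- and DSS T/T, and DESeq2 called 6, 1, 2 and none in these 4, all upward. Insm1 and Pax4 are in this list and also among the 19 genes. Fewer or more cells of a type and less or more RNA per cell cannot be told apart in bulk crypts, and the part of enteroendocrine cells in the Id4 difference was not tested.

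Markers of other cell types also differed between mutant and WT crypts. After DSS the 8 myeloid markers summed to 115 to 370 RPM in Mtg16-/- against 24.7 to 78.4 in WT (1 of 8 called higher by limma) and to 42.6 to 55.2 in T/T against 12.2 to 27.8 in WT (0 of 8 called by limma). The goblet marker sum lay wholly above WT in proximal Mtg16-/- (10848 to 12646 against 7405 to 9121, 1 of 6 called higher), proximal T/T (8034 to 8379 against 6857 to 7310, 1 of 6 called higher) and distal T/T (15122 to 17335 against 11747 to 14588, 0 of 6 called). It lay wholly below WT in DSS T/T (14359 to 14871 against 22224 to 24373, 0 of 6 called). The median log2 fold change of the 6 goblet markers went against the sum in the proximal mutants, at -0.50 in Mtg16-/- and -0.30 in T/T. That median was 0.09 in distal T/T and -0.39 in DSS T/T. Of B and plasma cell markers, the sum was 43.5 to 49.4 RPM against 11.5 to 28.9 in proximal Mtg16-/- and 15.9 to 17.4 against 4.37 to 8.18 in DSS T/T (0 of 6 called in each), and stem cell markers summed to 113 to 158 in DSS Mtg16-/- against 165 to 177 in WT (0 of 5 called). T and NK markers summed to 81.5 to 85.8 in proximal T/T against 88.9 to 122 in WT (0 of 8 called), and endothelial markers to 6.45 to 6.84 in proximal Mtg16-/- against 4.09 to 6.30 (0 of 4 called) and to 5.34 to 6.62 in proximal T/T against 3.96 to 4.59 (0 of 3 called). The epithelial sum in proximal Mtg16-/- (16368 to 17315 against 14637 to 16290, 0 of 8 called) and the enteric glia and neuron sum, at most 1.07 RPM, in both proximal comparisons were also wholly above WT. Smooth muscle sums overlapped WT but reached 77.4 RPM in proximal Mtg16-/-, 31.5 in proximal T/T and 47.0 in distal T/T (0 of 6 called in each). The highest WT sums there were 1.85, 0.956 and 2.21. Fibroblast sums in DSS Mtg16-/- also overlapped WT and reached 81.2 against at most 9.34 (0 of 6 called). The part of these cells, and of the lower segment score after DSS, in the differences of the 7 genes was not tested.

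The size of the Id4 difference was compared between settings directly. It was 0.71 ± 0.53 smaller (log2, SE) in proximal than in distal Mtg16-/- crypts, 0.43 ± 0.34 smaller in proximal than in distal T/T crypts and 0.76 ± 0.46 larger in distal Mtg16-/- than in distal T/T crypts. None of these passed (limma adjusted p = 0.999, 0.922 and 0.955, where 0.0372%, 0.0229% and 0% of genes did). After DSS the Mtg16-/- difference was 1.07 ± 0.43 smaller than at baseline (unadjusted p = 0.0221, limma adjusted p = 0.999, 0.00738% of genes called), the T/T difference was 0.36 ± 0.34 smaller (limma adjusted p = 0.655, 0.234% of genes called), and the Mtg16-/- and T/T differences were 0.05 ± 0.29 apart (limma adjusted p = 0.960, 95% interval -0.58 to 0.67, 0.0148% of genes called). With single libraries left out, the proximal minus distal difference ran from -1.21 (without proximal Mtg16-/- replicate 2) to -0.21 (without proximal Mtg16-/- replicate 1) in Mtg16-/- and from -0.75 (without proximal WT replicate 2) to -0.10 (without proximal WT replicate 1) in T/T. The distal Mtg16-/- minus T/T difference ran from 0.47 (without WT replicate 3 of the Mtg16-null colony) to 1.104 (without Mtg16-/- replicate 3). The DSS minus baseline difference ran from -0.55 to -0.21 in T/T and from -1.42 to -0.79 in Mtg16-/-. Without the library labelled distal Mtg16-/- replicate 2, Id4 was at -0.60 for proximal minus distal, 0.65 for distal Mtg16-/- minus T/T and -0.96 for DSS minus baseline in Mtg16-/- (limma adjusted p = 1.000, 0.956 and 0.716). No member passed in any of the 6 differences of effects without the replicate block, whereas with it the Id4 difference between DSS and baseline in Mtg16-/- was -1.03 and passed (limma adjusted p = 0.0171). Same-numbered libraries were not taken as pairs at baseline. Id4 after DSS against baseline in Mtg16-/- was the only member at an unadjusted p under 0.05 without the block.

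The other 6 genes gave no such separation. Tcf3 lay between -0.02 and 0.17 on the log2 scale in the 6 crypt comparisons. Tcf12 lay between -0.34 and 0.63 and Tcf4 between -0.41 and 0.74. Among the inhibitors, Id2 lay between -0.11 and 0.26, Id1 between -0.32 and 0.28 and Id3 between -0.49 and 0.04. Tcf3 and Id1 were separated upward in proximal Mtg16-/- and Tcf12 in proximal T/T, the comparisons of 2 against 2 libraries in which 17.5% and 22.6% of genes were.

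In distal baseline crypts single libraries stood apart from their groups. Id1 in distal Mtg16-/- was at 15566, 16027 and 14239 normalized counts in 3 libraries and at 6572 in the one labelled replicate 2, against 13864 to 15939 in WT. Tcf4 was at 873 in that library and at 1340, 1622 and 1745 in the other 3, against 1589 to 1795 in WT. Its Id1 (144 RPM), Tcf4 (19.2), Tcf12 (72.0), Id3 (96.7) and Id2 (17.4) fell within the ranges of the 8 proximal libraries, which were 140 to 218, 19.0 to 26.3, 70.4 to 72.9, 77.6 to 122 and 15.1 to 20.9. Its Tcf3 (53.3 RPM) and Id4 (19.99) lay above the proximal ranges of 39.4 to 50.6 and 4.503 to 16.98. Its Tcf3, Tcf4, Id2 and Id4 also lay within the ranges of the 14 other distal baseline libraries (46.9 to 74.5, 16.1 to 40.3, 11.0 to 25.1 and 2.42 to 22.6), so of the 7 genes only Id1, Tcf12 and Id3 set it apart from them. Without it the log2 fold change of Id1 went from -0.24 to 0.06 and that of Tcf4 from -0.34 to -0.13, and those of Tcf3, Tcf12, Id2 and Id3 were 0.06, 0.02, 0.29 and -0.11. In distal T/T, replicate 1 had 611 normalized counts of Tcf4 and 1275 of Tcf12, where the other T/T libraries had 1285 to 1592 and 2147 to 2301 and WT had 1498 to 1627 and 2296 to 2546. Its long-transcript measure was -0.39, the lowest of the baseline libraries. The values of Tcf4 (0.74), Tcf12 (0.63), Id1 (-0.32) and Id3 (-0.49) farthest from 0 were those of DSS T/T, where WT replicates 1 and 2 and T/T replicate 3 stood apart from the other 3 libraries.

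**Figure D2:**
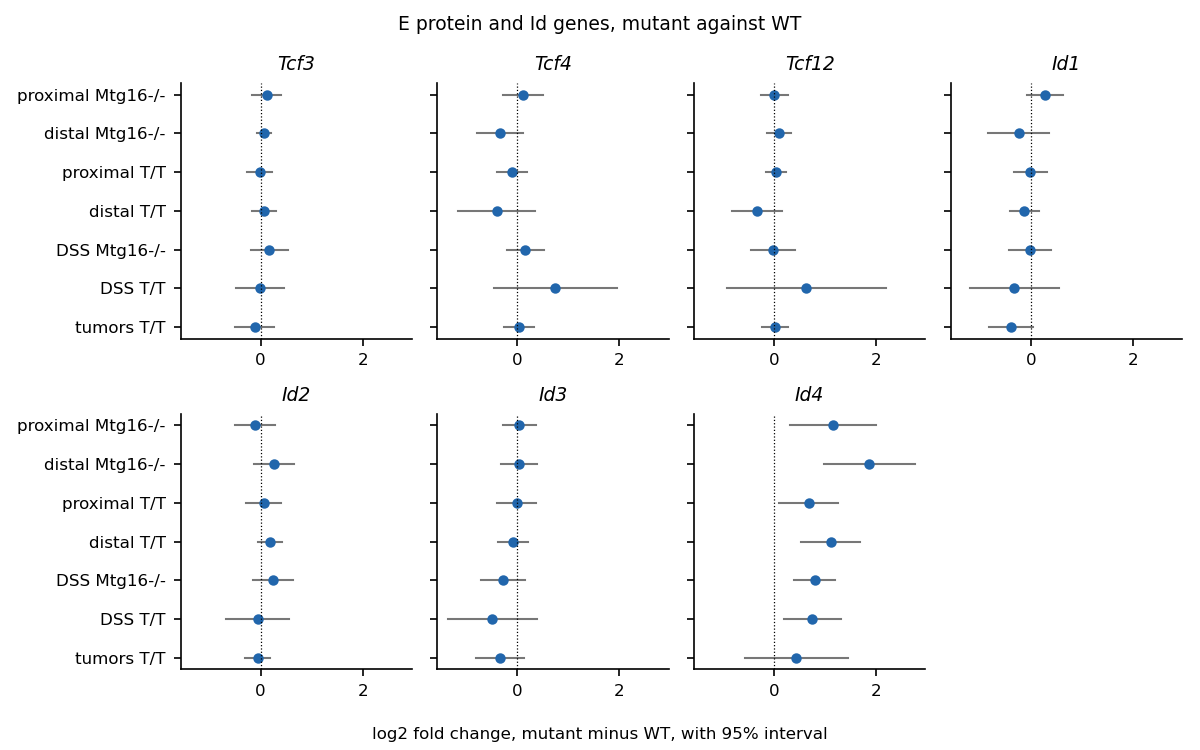
Log2 fold change of mutant minus WT (horizontal axis, points) with 95% limma intervals (lines) for the 7 genes in the 7 mutant comparisons. The Id4 interval lies above 0 in the 6 crypt comparisons and crosses 0 in tumors, and those of the other 6 genes cross 0 throughout.

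The second question was how these genes differ along the WT colon. Of the 7 genes, 6 passed the threshold between 7 distal and 4 proximal WT libraries, where 42.1% of all genes did, and edgeR and DESeq2 also called 6 (42.2% and 44.2% of all genes). The genes split within each family. Among the E proteins Tcf3 and Tcf4 were higher and Tcf12 lower in distal crypts, and among the inhibitors Id1 was higher and Id2 and Id3 lower.

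Id1 had the largest difference. It was at 7869, 6938, 8957 and 7050 normalized counts in proximal crypts and at 13500 to 15581 (median 13810) in distal crypts, a log2 difference of 0.87 ± 0.07 (SE, limma adjusted p = 4.35e-07). Id3 ran the other way, from 4524, 4071, 5276 and 4641 in proximal crypts to 2887 to 3613 (median 3119) in distal crypts, a log2 difference of -0.56 ± 0.08 (limma adjusted p = 4.89e-05). The groups of both genes were wholly separate. Id2 was lower in distal crypts by -0.47 ± 0.16 on the log2 scale (limma adjusted p = 0.0327), with 465 to 867 against 686 to 985 normalized counts, so its groups overlapped. Id4 was at 105 to 250 (median 182) in distal and at 320, 205, 206 and 297 in proximal crypts (-0.51 ± 0.23, limma adjusted p = 0.0968).

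Tcf4 was at 1545 to 1753 (median 1687) in distal crypts and at 1159, 1196, 1108 and 900 in proximal crypts, a log2 difference of 0.62 ± 0.08 (limma adjusted p = 2.66e-05). Tcf12 was at 2430 to 2940 (median 2588) against 3289, 3271, 3130 and 3383, a log2 difference of -0.32 ± 0.06 (limma adjusted p = 0.00107). Tcf3 had the smallest called difference, 0.23 ± 0.06 (limma adjusted p = 0.0112), with 2196 to 2613 in distal and 1834 to 2082 in proximal crypts. For the 5 genes with separate groups (Tcf3, Tcf4, Tcf12, Id1 and Id3; 30.0% of all genes were separate) the exact two-sided permutation p was 0.00303, the smallest that 7 against 4 libraries can give.

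Proximal and distal libraries came mostly from different sequencing requests. With the request as a covariate, which rests on the 1 request with both segments, Id1 (0.88), Tcf4 (0.70) and Id3 (-0.57) still passed (limma adjusted p = 0.000190, 0.000746 and 0.00194), and Tcf12 (-0.28), Tcf3 (0.13) and Id2 (-0.19) did not (0.0770, 0.417 and 0.457). The Id2 call was also lost when any 1 of 7 libraries was left out (limma adjusted p up to 0.108). Lymphocyte markers moved with the segment too, as 7 of 8 T and NK markers were called lower in distal crypts, with summed levels of 10.0 to 39.2 RPM in distal and 74.5 to 122 in proximal WT libraries. Other marker sums were also apart between the segments in WT. Goblet markers summed to 11747 to 20370 RPM in distal and 6857 to 9121 in proximal crypts (4 of 6 called higher and 2 lower by limma), enteroendocrine markers to 175 to 223 and 277 to 379 (2 of 8 higher and 3 lower) and myeloid markers to 12.97 to 27.78 and 44.3 to 65.1 (3 of 7 higher and 2 lower). Endothelial (6.43 to 8.94 against 3.96 to 6.30, 1 of 3 called higher and 1 lower) and smooth muscle sums (1.91 to 4.75 against 0.823 to 1.85, 1 of 4 called higher) were wholly higher in distal crypts. Lymphocytes express Id2, Id3 and Tcf12, and the part of these cell types in the differences was not tested.

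**Figure D3:**
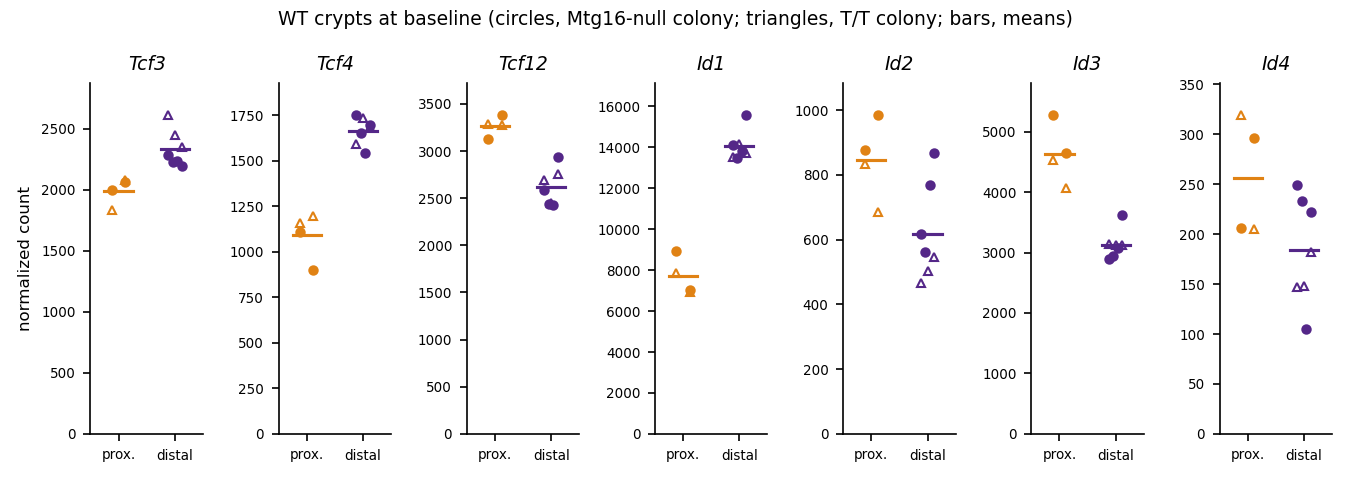
Normalized counts (vertical axes, each from 0) of the 7 genes in WT proximal (orange, 4 libraries) and distal (purple, 7 libraries) crypts, with circles for the Mtg16-null colony, triangles for the T/T colony and bars at the means. Id1 and Tcf4 are higher and Id3 and Tcf12 lower in distal crypts without overlap.

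Of 44 pathway genes tested from the lists, 20 (45.5%) were called between the segments, near the 42.1% of all genes. In the BMP pathway, 1 of 6 tested BMP ligand genes was higher (Bmp2, log2 difference 2.07 ± 0.15, limma adjusted p = 7.84e-08) and 3 were lower in distal crypts, among them Bmp3 (-3.77 ± 0.24, limma adjusted p = 3.28e-08) and Bmp7 (-4.58 ± 0.66, limma adjusted p = 7.89e-05). The median ligand lay at -0.55 against 0.0048 for all genes. Of the SMAD genes 3 of 6, intracellular carriers of BMP and TGF-β signals, were higher (Smad4, Smad5 and Smad2 at 0.78, 0.75 and 0.33), and none was lower. Among the receptor genes 1 of 6 was higher (Acvr1, 0.28) and 2 were lower (Acvr2a, -0.62, and Bmpr1a, -0.31). Among the pathway inhibitors 1 of 7 was higher (Chrd, 1.46) and 2 were lower (Bambi and Smad6, both -0.43). Of the class II partners of E proteins, 2 of 7 were higher, among them Neurog3 (0.67), and none lower. Of the Hes and Hey repressors 2 of 6 were higher (Hes6, 0.75, and Hes2, 0.91) and 1 lower (Heyl, -2.34). Cbfa2t3 was lower by -0.75 ± 0.20 (limma adjusted p = 0.00787) and was the 1 of 3 MTG genes called. Of 3 cyclin-dependent kinase inhibitor genes 1 was lower (Cdkn1c, -0.76).

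The third question was what DSS injury and repair changed in WT crypts, which one table answers for the T/T colony. Of the 7 genes, 3 passed, where 35.6% of all genes did. edgeR called 3 and DESeq2 4 (32.2% and 44.1% of all genes). Id4 rose from 160, 160 and 194 normalized counts to 296, 295 and 335, a log2 change of 0.85 ± 0.17 (n = 3 and 3, limma adjusted p = 0.0169). Tcf3 rose from 2851, 2634 and 2506 to 3331, 3698 and 3223 (0.36 ± 0.11, limma adjusted p = 0.0486). Tcf4 fell from 1740, 1867 and 1798 to 554, 422 and 943 (-1.57 ± 0.29, limma adjusted p = 0.0134). The groups of these 3 genes and of Tcf12 and Id2 were separate, as were those of 55.3% of all genes. Goblet markers summed to 11747 to 14588 RPM at baseline and 22224 to 24373 after DSS in these WT libraries, with 4 of 6 called higher by limma. Epithelial (16214 to 17744 and 18290 to 23409, 2 of 8 called higher) and fibroblast sums (1.11 to 2.64 and 3.38 to 7.51, 2 of 4 called higher) were also wholly higher after DSS, and those of B and plasma cells (9.31 to 18.6 and 4.37 to 8.18, 0 of 5 called) and of enteric glia and neurons (0.368 to 0.672 and 0.0836 to 0.258) wholly lower. The part of these cells in the changes was not tested.

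Tcf12 was at 823, 585 and 2396 normalized counts after DSS against 2942, 2635 and 2942 at baseline (-1.43 ± 0.49, limma adjusted p = 0.0589). Id1 was at 16610, 17730 and 9939 against 14777, 15219 and 14615, and Id3 at 3645, 3659 and 1898 against 3423, 3350 and 3337. In these 3 genes DSS replicate 3 stood apart from DSS replicates 1 and 2. Id2 was at 390, 317 and 468 against 507, 541 and 581 (-0.49, limma adjusted p = 0.0806). Leaving out DSS replicate 3 raised the members called from 3 to 6 (all but Id3), whereas none was called without baseline replicate 1, baseline replicate 2 or DSS replicate 1, and 1 was called without baseline replicate 3. The share of all genes called without each of these libraries is not given here, so these counts do not single out the members.

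In the T/T colony after DSS, Tcf4, Tcf12 and Id1 differed between libraries along with the long-transcript measure. The measure was -0.97, -1.24 and -0.08 in WT replicates 1, 2 and 3 of the T/T colony and -0.29, 0.25 and -1.29 in T/T replicates 1, 2 and 3. The 3 libraries below -0.9 had 631 to 895 normalized counts of Tcf12 and 18055 to 19911 of Id1 in the DSS T/T table, and the other 3 had 2047 to 3118 of Tcf12 and 9268 to 10494 of Id1. Tcf3 was at 3621 to 4574 in the first 3 and at 3065 to 3429 in the other 3. In the Mtg16-null colony after DSS the measure ran from -0.68 to 0.15, and its lowest library, Mtg16-/- replicate 1, had 43.8 RPM of Tcf4, within the 37.7 to 44.8 of its group. The next lowest, WT replicate 1 at -0.53, had the least Tcf4 and Tcf12 of the WT libraries there, with 30.6 RPM against 40.0 and 45.4 and 39.4 RPM against 61.7 in both others. Tcf4 and Tcf12 have the longest transcripts of the 7 genes (8577 and 6299 bases, against 1160 to 3849 for the others). In the WT comparison the median log2 change was -0.46 over 2954 genes with transcripts of 5000 bases or more and 0.18 over 2987 genes under 2000 bases, and 25.9% of the long genes lay below Tcf4. With the trend over transcript length removed from each library, Tcf4 fell by 0.68 (limma adjusted p = 0.00974), Id4 rose by 1.21 (0.00388), Tcf3 rose by 0.56 (0.0192) and Tcf12 was at -0.72 (0.0801). The DSS and baseline libraries came from different sequencing requests, so treatment and request cannot be told apart.

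**Figure D4:**
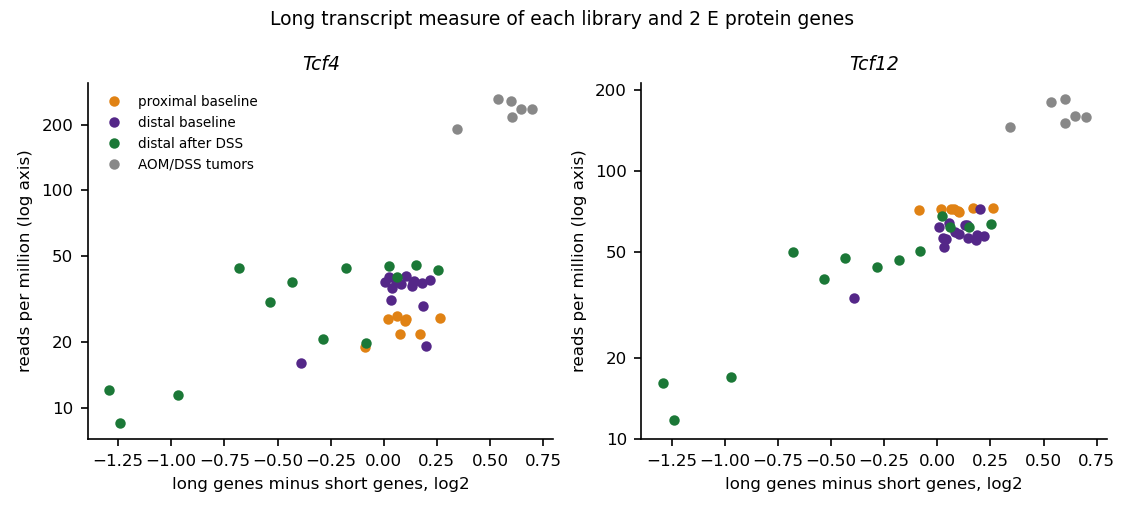
Levels of Tcf4 and Tcf12 in RPM (vertical log axes) against the long-transcript measure (horizontal axis, log2) in the 42 libraries, colored by kind of sample. The 3 DSS libraries below -0.9 on the horizontal axis are the lowest in both genes, and the tumors lie above all crypts.

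Of 43 pathway genes tested from the lists, 13 (30.2%) were called after DSS, against 35.6% of all genes. Atoh1 (0.68 ± 0.14, limma adjusted p = 0.0171) and Bhlha15 (1.82 ± 0.25, limma adjusted p = 0.00871) rose as 2 of 7 class II partners, Hes2, Hes6 and Bhlhe40 (0.74, 0.78 and 1.03) rose as 3 of 5 Hes, Hey and Bhlhe40 repressors, and Cbfa2t3 rose by 1.19 ± 0.15 (limma adjusted p = 0.00814). Bmpr1a, Acvr2a and Bmpr2 fell (-2.38, -2.06 and -2.30) as 3 of 6 BMP receptor genes, 2 of 6 BMP ligand genes rose (Bmp3, 0.77, and Bmp8a, 1.14), 1 of 6 SMAD genes rose (Smad3, 0.48) and 1 of 7 pathway inhibitors fell (Smurf2, -1.29). Bmpr1a, Acvr2a, Bmpr2 and Smurf2 have transcripts of 5290 to 12899 bases. With the length trend removed they still passed, at smaller values of -1.70, -1.42, -1.20 and -0.70 (limma adjusted p = 0.00725, 0.00453, 0.00390 and 0.0337). Under that setting Bmp8b, Acvr1, Smurf1 and Cbfa2t2 were called higher as well (1.62, 0.56, 0.91 and 0.78). Cbfa2t3, Bmp3 and Smad3 rose by more under it, at 2.02, 1.52 and 1.05 (limma adjusted p = 0.00414, 0.0103 and 0.00993).

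Among the class II partners of E proteins in the mutants, Neurog3 was at 405 ± 194 normalized counts in distal Mtg16-/- against 86.2 ± 20.3 in WT (log2 fold change 2.10 ± 0.38, limma adjusted p = 0.1) and rose in Mtg16-/- after DSS by 1.66 ± 0.27 (limma adjusted p = 0.0321). In distal T/T it was at 138 ± 29.2 against 67.7 ± 16.0 (1.01 ± 0.23, limma adjusted p = 0.689, DESeq2 adjusted p = 0.0433), and its log2 fold change was 1.44 ± 0.27 in proximal T/T and 1.01 ± 0.39 in DSS T/T (limma adjusted p = 0.143 and 0.523). Neurod1, named after its values were seen, rose in distal Mtg16-/- by 1.59 ± 0.18 (limma adjusted p = 0.0170). Atoh1 fell in Mtg16-/- after DSS, with a log2 fold change of -1.16 ± 0.16 (limma adjusted p = 0.0165), and was at -0.96 ± 0.19 in distal Mtg16-/- (limma adjusted p = 0.126). Of 8 class II genes tested, limma called 1 in distal Mtg16-/- and 2 in Mtg16-/- after DSS. It called none of the 6 to 8 tested in proximal Mtg16-/- and the T/T crypt comparisons, where 2 to 5 were at an unadjusted p under 0.05. DESeq2 called 3 of 8 in distal Mtg16-/-, 2 of 7 in distal T/T, 2 of 8 in DSS Mtg16-/- and 1 of 8 in DSS T/T, and edgeR called 1, 0, 2 and 0. Without the library labelled distal Mtg16-/- replicate 2, limma called 4 of the 8, with Neurog3 at 2.45 ± 0.27 (limma adjusted p = 0.00568), Neurod1 at 1.76 ± 0.13 (0.000941) and Atoh1 at -1.08 ± 0.18 (0.0298). Hes1, a Notch target that represses class II genes, lay between -0.30 and 0.25 in the 6 crypt comparisons and was called in none.

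In AOM/DSS tumors limma, edgeR and DESeq2 each called 0 of the 7 genes, where they called 0%, 0% and 0.151% of all genes, and 0 of the 7 were at an unadjusted limma p under 0.05, as 2.47% of all genes were. No member had separate groups, as 5.52% of all genes did. Id4 was at 316, 558 and 237 normalized counts in T/T tumors and at 422, 147 and 272 in WT tumors, a log2 difference of 0.43 ± 0.44 (95% interval -0.58 to 1.45). Its groups overlapped, and with single libraries left out the log2 difference ran from 0.03 to 0.79. Enteroendocrine markers summed to 74.6 to 142 RPM in T/T and 23.2 to 71.7 in WT tumors, where limma, edgeR and DESeq2 each called 0 of the 6 tested and 3 were at an unadjusted p under 0.05. Id1 was at 10507, 9389 and 11302 in T/T and at 10364, 13671 and 17717 in WT tumors (-0.39 ± 0.19, limma adjusted p = 0.998), and the other 5 genes lay between -0.34 and 0.03.

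Across the 14 conditions the genes were compared in RPM, a level set across tables that were normalized separately and therefore given with no test. Id4 was highest in DSS Mtg16-/- (17.6 ± 2.9 RPM, SD) and distal Mtg16-/- (17.1 ± 6.4, or 16.1 ± 7.4 without the library labelled replicate 2), followed by proximal Mtg16-/- (12.8 ± 5.9), DSS T/T (11.5 ± 3.0) and DSS WT of the Mtg16-null colony (10.1 ± 1.4). Below them came proximal T/T (8.9 ± 0.7), distal T/T (8.3 ± 2.3), T/T tumors (7.7 ± 3.4), DSS WT of the T/T colony (6.4 ± 0.6), WT tumors (5.7 ± 2.8), proximal WT of the T/T and Mtg16-null colonies (5.7 ± 1.7 and 5.5 ± 1.1) and distal WT (4.5 ± 1.4 and 3.7 ± 0.4). No neighbors in this order were separate, but both colonies had more Id4 after DSS than at baseline in WT distal crypts.

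Tcf4, Tcf12, Tcf3 and Id2 were highest in the tumors. Tcf4 reached 229 ± 36.2 and 236 ± 19.7 RPM in WT and T/T tumors against 13.3 to 42.6 in the 12 crypt conditions, Tcf12 161 ± 17.6 and 166 ± 17.7 against 26.4 to 72.8, Tcf3 162 ± 20.8 and 153 ± 30.6 against 41.8 to 74.7, and Id2 47.3 ± 3.70 and 46.1 ± 4.6 against 8.1 to 20.5. For these 4 genes the tumor ranges lay wholly above that of the next condition. Of 91 neighboring steps over the 7 genes, 7 were separate (8 with TMM scaling over the 42 libraries). Tumors were whole tissue, with the fibroblast levels given above and 249 to 370 RPM of endothelial markers against 4.0 to 9.3 in crypts, so epithelial and stromal shares of these levels cannot be told apart.

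Id1 did not single out the tumors. With every library kept, it was highest in distal WT crypts of both colonies (317 ± 8.9 and 317 ± 11.6 RPM), with distal Mtg16-/- at 290 ± 99.9. Without the library labelled replicate 2, distal Mtg16-/- was the highest condition, at 339 ± 28.4. Id1 stood at 284 ± 70.3 in WT and 216 ± 22.4 in T/T tumors, and was lowest in proximal crypts (161 to 211). Id3 was at 133 ± 29.4 in WT tumors, 106 ± 23.4 in T/T tumors, 93.4 to 112 in the 4 proximal conditions, 69.6 to 73.4 in the 4 distal baseline conditions (distal Mtg16-/- 65.6 ± 7.3 without the library labelled replicate 2) and 45.1 to 63.0 after DSS.

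Per kilobase of the longest transcript, the 4 inhibitors together exceeded the 3 E proteins by 6.89 to 11.1 times in the 12 crypt conditions and by 3.49 and 2.79 times in WT and T/T tumors. With the length of all exons together the ranges were 11.0 to 18.4 and 5.78 and 4.67, so the ratio depends on the length used while crypts stayed above tumors with both. Id1 made up 61.0 to 83.7% of the inhibitor level in crypts and Id4 0.282 to 1.85%, and Tcf3 made up 49.7 to 80.6% of the E protein level.

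**Figure D5:**
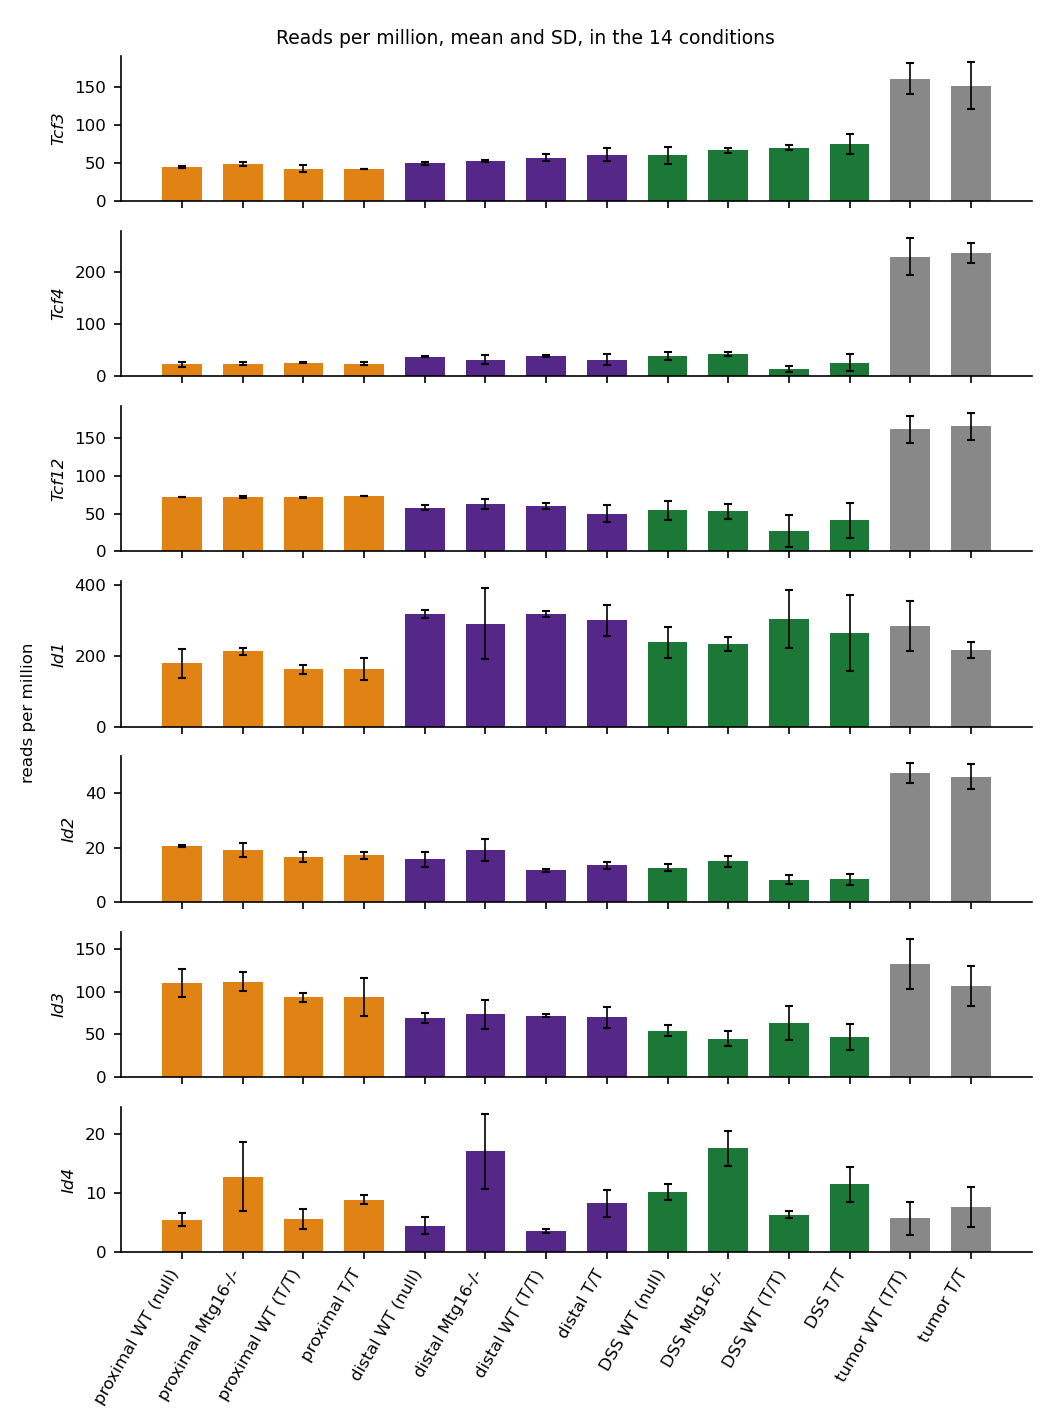
Levels of the 7 genes in RPM (vertical axes from 0; bars, means; error bars, SD) in the 14 conditions, with proximal baseline in orange, distal baseline in purple, distal after DSS in green and tumors in grey. The mutant bars of Id4 stand above the WT bars of the same segment and treatment, and Tcf3, Tcf4, Tcf12 and Id2 are highest in tumors.

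The genes whose condition means ran most like each member over the 14 conditions (Pearson r of log2 RPM among 12985 genes, a description whose points share the libraries) were Pclo, Rbp4 and Ubxn11 for Id4 (r = 0.85, 0.82 and 0.80, Spearman rho 0.86, 0.79 and 0.79). For the other inhibitors they were Ly6g6d, Prr36 and Zfp775 for Id1 (r = 0.94 to 0.96), Elp2, Sntb1 and Il7r for Id2 (0.97 to 0.98) and, among others, Matk and Rell1 for Id3 (0.95 and 0.94). For the E proteins they were Slc20a2, Rbm22 and Arhgef1 for Tcf3 (0.99), Fip1l1, Exoc4 and Abcb1b for Tcf4 (0.99) and Desi2, Agfg1 and Jmy for Tcf12 (0.99).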

How the data were processed

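Bulk RNA-Seq was measured in 42 libraries. Per the labels and the study's methods, the authors trimmed poly(A)-selected reads with fastp 0.20.0, quantified them with Salmon 1.3.0 against mm10 transcripts and deposited gene counts divided by DESeq2 1.26.0 size factors (R 3.6.3), a signal on a count scale that was normalized within each of 9 tables. The tables also hold the authors' base means, fold changes, standard errors and p-values, which were not used. In 7 tables every value was a whole multiple of 1 read (tolerance 0.1, 100% of values), giving 32231389 to 74661922 reads for 38 libraries (median 46659625). The other 2 tables gave no such multiples, so the depth of their 4 proximal mutant libraries is unknown.

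The main test was limma 3.58.1 with a trend on log2(normalized count + 1), on genes with a mean of at least 10, with Benjamini-Hochberg adjustment over all genes and a threshold of 0.05. A fold change on this scale understates low genes. The exact permutation test was two-sided over libraries. Alternatives were a pseudocount of 0.1, no filter, TMM scaling, the replicate block, requests, each library left out, and edgeR 4.0.16 and DESeq2 1.42.0 on the recovered reads. Removal of the length trend (natural spline, 4 degrees of freedom) was added after seeing the data. On simulated counts of the distal Mtg16-/- comparison (13822 genes), limma recovered 95 of 100 genes changed 2-fold and 100 of 100 changed 4-fold. The counts for 2-fold were 50 in proximal Mtg16-/- (13949 genes), 45 in proximal T/T (13790 genes), 84 in DSS T/T (13659 genes) and 58 for a simulated difference of effects (13740 genes), and those for 4-fold were 100 in each. The simulation gave every gene the same dispersion and changed only genes above a minimum mean count. It was not matched to the spread between the real libraries, so these counts do not give the power for the members.

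Same-numbered libraries deviated together in the DSS Mtg16-/- comparison (correlations 0.554, 0.460 and 0.317), so the block is given there. The 7 members and the gene lists were chosen with earlier results of these data known. Named genes were the members, at most 4 called genes of a list with the largest fold changes where a member was called, and Cbfa2t3, Neurog3, Atoh1, Ascl2 and Hes1 where they bear on a member. Ascl2 was called in no comparison. Gene positions are from GENCODE vM21 (GRCm38) and the promoter windows from RefSeq (GRCm38.p6), which matched 5 of 7 members. Exons of Id4 share 82 and 171 bases with 2 genes on the other strand, and counting by strand is not given in the sources used here. A few genes of the lists are not reported here by name.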

Additional observations from a re-analysis of the deposited data

Results flagged for a closer look

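In 4 cases 1 library stood apart from its group beyond Dixon's 95% limit, among 42 sets of 4 or 7 libraries examined; chance flags about 1 set in 20. Id2 in distal Mtg16-/- was at 1099 normalized counts in replicate 3 against 756 to 794 in the other 3. Tcf12 in distal T/T was at 1275 in replicate 1 against 2147 to 2301. In WT distal crypts, replicate 4 of the Mtg16-null colony was the highest of 7 for Id1 (15581 against 13500 to 14170) and for Id3 (3613 against 2887 to 3137). No difference of effects between settings passed for any member without the replicate block, and every library column was used.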

How the results depend on the processing

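The direction of Id4 in the 6 crypt comparisons was the same under every alternative run, with log2 fold changes from 0.35 (proximal T/T without 1 library) to 2.21 (distal Mtg16-/-). DESeq2 on the recovered reads called 1 member instead of 0 in distal Mtg16-/-, distal T/T and DSS Mtg16-/-. The replicate block called 1 instead of 0 in DSS Mtg16-/- and, for Id4 (-1.03, limma adjusted p = 0.0171), in the Mtg16-/- effect after DSS minus baseline. It called 1 instead of 3 in WT after DSS. Numbers were not taken as pairs in these last 2, and the block changed no other count by more than 1.5 times. In the WT segments, 3 of 7 passed with the request as covariate and 3 within the one request that holds both segments. Leaving out 1 library at a time gave 0 to 6 called members in WT after DSS, 5 to 6 in the WT segments and 0 in the 7 mutant comparisons. For the WT comparisons, the shares of all genes called with the block, with the request or with a library left out are not given here. In WT after DSS, Id1 ran from -0.21 to 0.21 (0.040 with edgeR) and Id3 from -0.36 to 0.12. The Id4 difference between Mtg16-/- and T/T effects after DSS ran from -0.11 to 0.20. The cause of these shifts was not tested. With 2 libraries a group, as in both proximal comparisons, the exact test cannot go below 0.333, and the baseline, DSS and tumor libraries came from different requests.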
